A study of Mus musculus with 12 samples.

Results

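Small proline-rich (Sprr) genes, with involucrin (Ivl), cornifelin (Cnfn) and the transglutaminases Tgm1 and Tgm3, encode proteins of the cornified envelope and the enzymes that cross-link them. They were followed here in the mouse seminal vesicle. The genes were chosen by name alone: every probe set to which the platform annotation gives a single symbol that starts with Sprr, or that is Ivl, Cnfn, Tgm1 or Tgm3. This gave 17 genes, 13 of them Sprr genes, each measured by 1 probe set, of 30142 genes named on the array.

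The tissue came from C57BL/6 males at week 10, with 3 arrays in each of 4 groups and 12 in all. Wild-type mice (WT) and mice lacking estrogen receptor-alpha (aERKO) received either diethylstilbestrol (DES), a synthetic estrogen, or vehicle as newborns. DES was injected under the skin in corn oil at 2 µg per pup per day from day 1 to day 5, so the adult tissue was sampled long after exposure ended. The groups are called WT_vehicle, WT_DES, aERKO_vehicle and aERKO_DES and share strain, sex and age at collection. The labels name neither the construct nor the cell types that lack the receptor, and do not say whether the 3 samples of a group were separate animals, so p-values reflect variation among these samples alone, part or all of which can be technical.

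The cornified envelope is a tough protein shell that replaces the plasma membrane of terminally differentiating cells in stratified squamous epithelium, such as epidermis. Involucrin and desmosomal plaque proteins are laid down first, and transglutaminases then join Sprr proteins and loricrin to them as cross-bridges. The seminal vesicle is lined by a simple secretory epithelium with underlying basal cells, which does not normally cornify. Several Sprr2 genes are known to be estrogen-induced in the epithelium of the mouse uterus.

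Values are log2 expression on the RMA scale, in which 1 unit is a 2-fold difference, and differences are given with their standard error (SE) from limma over all 12 arrays. A gene was called when its p, adjusted by Benjamini-Hochberg over all genes tested in that comparison, was below 0.05. A gene entered the test if 3 or more of the 12 arrays placed it above their own median probe set, which was so for 20130 genes and for 10 of these 17. The 7 others (Sprr2g, Sprr2i, Sprr2j-ps, Sprr2k, Sprr1b, Sprr3 and Tgm3) were tested in a second fit without that filter, over all 30142 genes. Sprr2d, Sprr2e and Sprr2f passed the filter only through the 3 WT_DES arrays, so counts over the genes that passed are descriptions, and the count over all 17 comes from the fit without the filter. Array medians ran from 5.95 to 6.14. The 23 background control sets averaged 5.20 but ran from 2.09 at the lowest to 9.06 at the highest GC content of their probes, and the GC content of these genes' probes was not given. Whether a low level here lay above background could therefore not be settled gene by gene. Bulk arrays cannot tell fewer cells of a type from less RNA per cell.

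Arrays of a group correlated at 0.982 to 0.996 over the 20130 genes tested, and the WT_DES arrays correlated with the others at 0.867 to 0.919. Esr1, which encodes estrogen receptor-alpha, was at 7.75 ± 0.0795 (SD, n = 3) in WT given vehicle and 7.66 ± 0.0965 in WT given DES. In aERKO it was at 6.99 ± 0.106 and 6.90 ± 0.0904. Every aERKO array lay below every WT array, by 0.76 ± 0.08 given vehicle (limma, adjusted p = 0.00588); whether the probe set lies in the deleted part is not given.

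Upstream sequence of the genes is shown before their values because the Sprr2 genes that rose and those that did not carry much the same letters there. The stretches below are the 250 bases before each gene's start, from RefSeq (GRCm38.p6), in gene orientation; capitals mark matches to TGANTCA, the AP-1 motif, and to TATAAA, the TATA box. Sprr2f (chr3:92364937-92365186, plus strand) and Sprr2b (chr3:92316455-92316704, plus strand) showed the largest increases after DES in WT. Sprr2i (chr3:92407741-92407990, plus strand) is a Sprr2 gene that was not called. Sprr1a (chr3:92485882-92486131, minus strand) was called and its neighbour Sprr1b (chr3:92438780-92439029, minus strand) was not, and Ivl is at chr3:92573736-92573985, minus strand.
Sprr2f: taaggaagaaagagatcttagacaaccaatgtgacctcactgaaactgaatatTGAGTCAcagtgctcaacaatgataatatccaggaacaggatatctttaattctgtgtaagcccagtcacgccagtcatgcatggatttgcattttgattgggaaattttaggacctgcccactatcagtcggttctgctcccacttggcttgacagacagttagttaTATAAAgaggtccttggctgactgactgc
Sprr2b: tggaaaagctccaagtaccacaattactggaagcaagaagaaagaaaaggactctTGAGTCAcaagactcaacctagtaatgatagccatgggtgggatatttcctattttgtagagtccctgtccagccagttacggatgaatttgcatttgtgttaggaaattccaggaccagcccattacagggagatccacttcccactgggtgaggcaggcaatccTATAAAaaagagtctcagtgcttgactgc
Sprr2i: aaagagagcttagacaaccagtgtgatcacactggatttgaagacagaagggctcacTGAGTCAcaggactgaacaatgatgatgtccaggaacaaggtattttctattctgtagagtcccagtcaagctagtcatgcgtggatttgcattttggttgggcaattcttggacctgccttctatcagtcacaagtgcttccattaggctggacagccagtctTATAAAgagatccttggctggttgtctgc
Sprr1a: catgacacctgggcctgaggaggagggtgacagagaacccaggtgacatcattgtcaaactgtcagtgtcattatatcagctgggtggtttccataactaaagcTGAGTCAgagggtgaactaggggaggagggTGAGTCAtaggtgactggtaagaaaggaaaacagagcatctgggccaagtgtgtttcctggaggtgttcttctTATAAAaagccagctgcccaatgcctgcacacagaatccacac
Sprr1b: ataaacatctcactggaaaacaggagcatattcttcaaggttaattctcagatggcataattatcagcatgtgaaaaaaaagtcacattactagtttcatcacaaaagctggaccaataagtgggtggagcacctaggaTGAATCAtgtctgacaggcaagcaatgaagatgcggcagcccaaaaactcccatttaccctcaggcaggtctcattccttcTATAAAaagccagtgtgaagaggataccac
Ivl: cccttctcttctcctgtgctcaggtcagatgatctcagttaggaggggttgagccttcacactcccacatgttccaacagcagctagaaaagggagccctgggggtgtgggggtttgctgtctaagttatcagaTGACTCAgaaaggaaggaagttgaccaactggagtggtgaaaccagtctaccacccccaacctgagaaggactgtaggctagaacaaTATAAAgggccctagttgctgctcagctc

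Promoter windows of 300 bases, from 250 before to 50 after the start, were listed for 15 of the 17 genes; Sprr2g and Sprr2j-ps were not matched. TGANTCA, which reads the same on both strands, occurred in 10 of the 15 windows, against 7.81% of 32851 windows of the same length over all genes. TATAAA, searched on both strands, occurred in 12 of the 15, against 13.6% of all windows. The palindromic estrogen response element, GGTCA and TGACC separated by 3 bases of any kind, occurred in 0 of the 15, against 0.07% of all windows; no match says only that these letters are not in the window. The motifs searched did not overlap one another in any of these windows.

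The AP-1 match began at nearly the same place in the Sprr2 genes, counted from the gene's start: at -195 in Sprr2b, -193 in Sprr2d, Sprr2e and Sprr2i, -197 in Sprr2f and -198 in Sprr2h. Sprr2k held matches at -196 and -182, and Sprr1a at -146 and -116. Ivl held 1, at -116, and Sprr1b held 1, at -111, spelled TGAATCA. All 7 genes with a window that were called higher after DES in WT held the AP-1 letters and TATAAA, and so did Sprr2i, Sprr2k and Sprr1b, which were not called. The Sprr2f window was 75.8% identical to that of Sprr2e over the aligned length, 75% to that of Sprr2i, 73.2% to that of Sprr2d and 65.7% to that of Sprr2b. The identity was 63.1% with Sprr2k and 61.9% with Sprr2h, and 47.1% to 52.0% with the genes outside the Sprr2 family. Sprr2i, with the window next in likeness after Sprr2e, was not called in any comparison on the deposited scale.

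DES given to newborn WT mice was followed in the adult by higher expression of 8 of the 17 genes: Sprr2b, Sprr2d, Sprr2e, Sprr2f, Sprr2g, Sprr2h, Sprr1a and Ivl. Over all 30142 genes in the same unfiltered fit, 13.7% were called higher. The count of 8 was the same whichever 1 of the 12 arrays was left out. None of the 17 was called lower there, against 17% of all genes, and their median difference was 0.19 against -0.08 over all genes. In the filtered fit 7 of the 10 tested were called higher, against 20.7% of all genes tested, and 1, Cnfn, lower, against 23.3%. Sprr2f, Sprr2b, Sprr2d, Sprr1a, Sprr2g and Ivl were at least 2-fold higher, as were 3.23% of all genes in the unfiltered fit, and the first 3 of these at least 4-fold, as were 1.2%. The WT groups did not overlap in 12 of the 17 genes: WT_DES lay above WT_vehicle in 10, against 18.9% of all genes, and below it in 2, against 32.8%.

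Sprr2f, one of the Sprr2 cross-bridging proteins, differed most. Its values were 5.15, 4.96 and 4.79 on the WT_vehicle arrays and 8.90, 10.15 and 9.36 on the WT_DES arrays. The groups were apart by far more than their spread. In aERKO it read 4.88, 4.75 and 4.99 after vehicle and 4.66, 4.66 and 5.35 after DES, so all 9 arrays other than WT_DES lay between 4.66 and 5.35. The difference in WT was 4.51 ± 0.26, a 22.7-fold increase with a 95% interval on the log2 scale of 3.94 to 5.07 (limma, adjusted p = 4.51e-08).

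Sprr2b read 8.54, 8.50 and 8.68 in WT_vehicle and 10.82, 11.50 and 11.39 in WT_DES. The aERKO arrays read 7.92, 8.08 and 8.56 after vehicle and 8.05, 8.03 and 8.24 after DES. All but the one at 8.56 lay below the lowest WT_vehicle array. The increase in WT was 2.67 ± 0.18, or 6.34-fold (limma, adjusted p = 1.66e-07). Sprr2d went from 5.81, 5.89 and 5.74 in WT_vehicle to 7.59, 8.91 and 8.29 in WT_DES. Its WT_DES arrays spread over more than 1 log2 unit, yet the lowest of them exceeded every array of the other groups, which lay between 5.44 and 6.09. The increase was 2.45 ± 0.25, or 5.47-fold (limma, adjusted p = 9.3e-06).

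Sprr2g, annotated by RefSeq as a transcribed pseudogene, was low throughout and did not pass the filter. It read 3.23, 3.27 and 3.51 in WT_vehicle and 3.86, 5.68 and 4.94 in WT_DES, against 3.42 to 3.58 over all 6 aERKO arrays. The WT_DES arrays were all the highest, with an SD of 0.915, the widest of the 17 genes in any group. The difference was 1.49 ± 0.31, or 2.82-fold (limma without the filter, adjusted p = 0.00326).

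Sprr2e and Sprr2h rose less. Sprr2e was 5.53, 5.46 and 5.43 in WT_vehicle and 5.99, 6.52 and 6.26 in WT_DES, a difference of 0.78 ± 0.14 (1.72-fold; limma, adjusted p = 0.00086). Sprr2h was 6.15, 6.27 and 6.15 in WT_vehicle and 6.57, 7.05 and 6.75 in WT_DES, a difference of 0.60 ± 0.15 (1.52-fold; limma, adjusted p = 0.00585). In both genes the WT_DES arrays lay above all other arrays, the highest of which was 5.76 for Sprr2e and 6.40 for Sprr2h, each in an aERKO group.

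The remaining Sprr2 genes were not called after DES in WT. Sprr2i ran from 3.92 to 4.15 in WT_vehicle and from 4.07 to 4.27 in WT_DES, a difference of 0.10 with a 95% interval of -0.09 to 0.30 (limma without the filter, adjusted p = 0.393). For Sprr2j-ps, another transcribed pseudogene in RefSeq, the difference was 0.03 with an interval of -0.20 to 0.26 (adjusted p = 0.827). For Sprr2k the groups did not overlap, 3.70 to 3.83 against 3.85 to 4.08, but the difference of 0.19 did not pass the test, with an interval of -0.21 to 0.60 (adjusted p = 0.435). The interval of Sprr2k reaches past the lower bounds of 0.47 for Sprr2e and 0.28 for Sprr2h, so these were not shown to differ in response, whereas it ends below the lower bound of 1.90 for Sprr2d. The Sprr2 genes are close paralogs, and how far probes of one set also bind transcripts of another was not tested, so the split among them is uncertain.

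**Figure D1:**
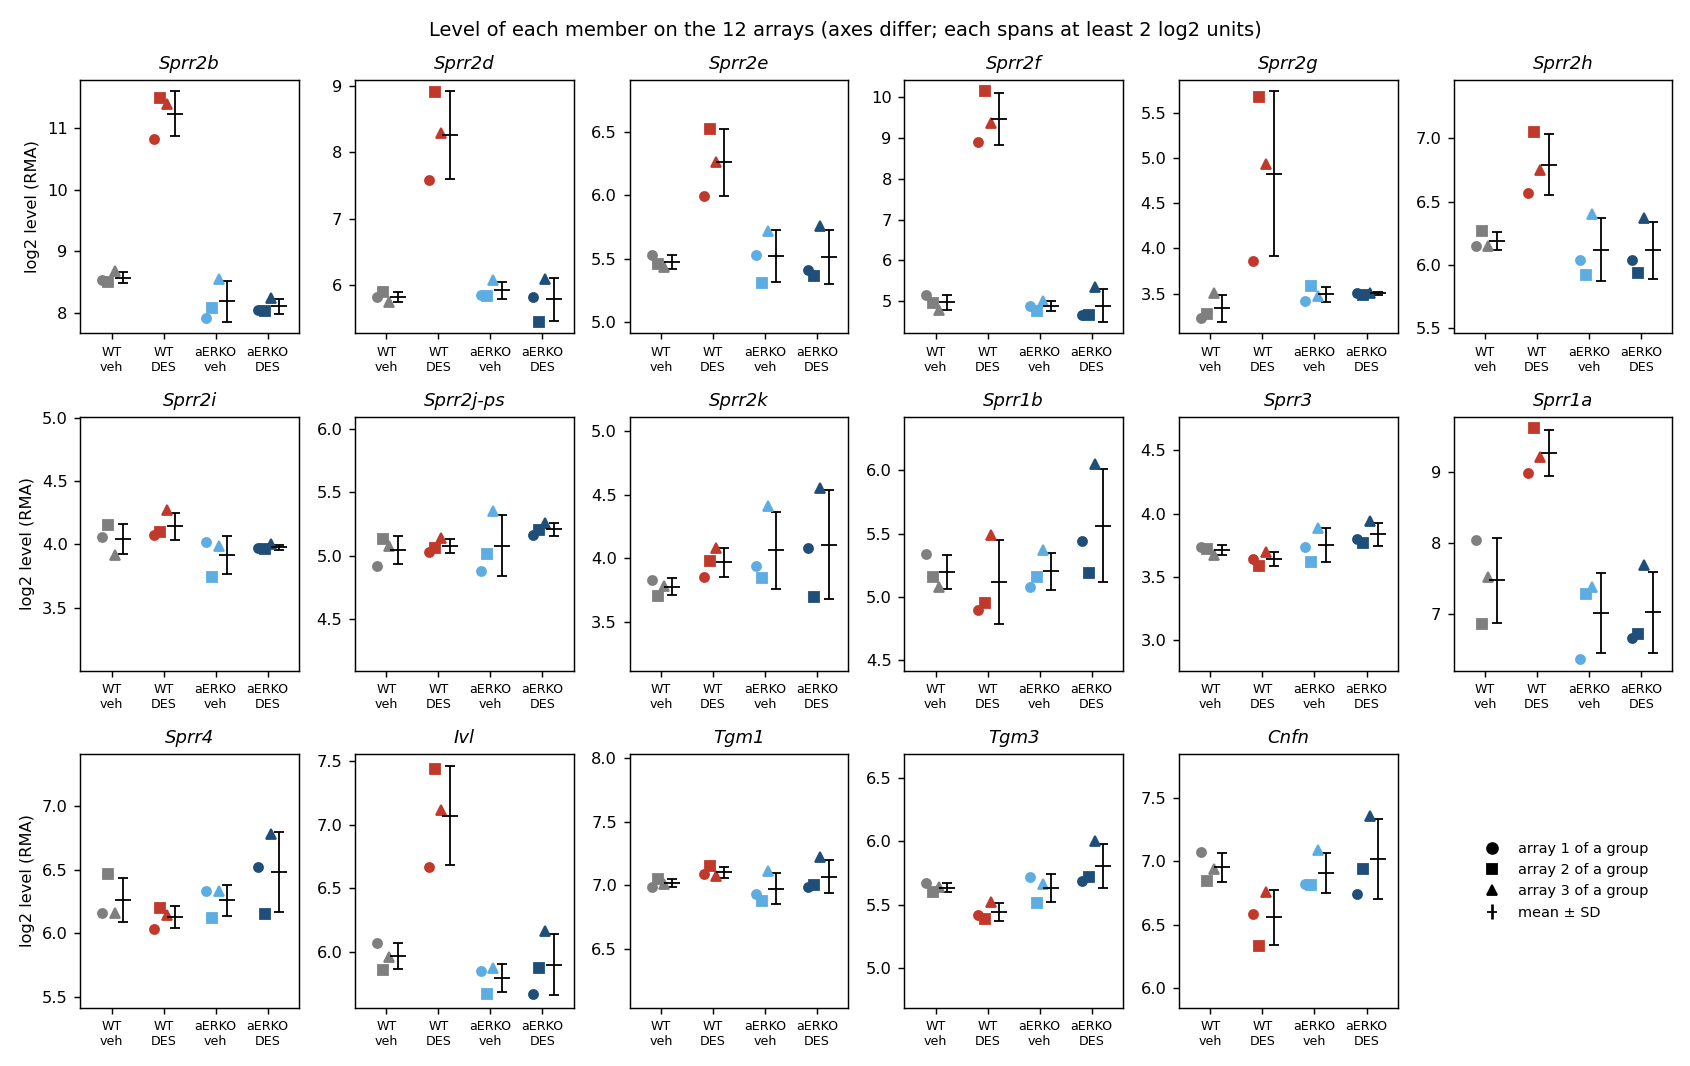
Log2 expression (RMA scale) of the 17 genes on each of the 12 arrays, 1 panel a gene; points are arrays, with 3 in each of the 4 groups, and bars show the group mean and SD. In Sprr2f the WT_DES arrays sit between 8.90 and 10.15 and all others at or below 5.35, whereas Tgm1 stays between 6.88 and 7.22 in all groups.

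Outside the Sprr2 genes, Sprr1a and Ivl rose. Sprr1a, a cross-bridging protein also induced in injured or stressed epithelium, was 8.05, 6.86 and 7.52 in WT_vehicle and 8.99, 9.62 and 9.21 in WT_DES. Its untreated level varied more than that of the other genes, with an SD of 0.596 in WT_vehicle and 0.565 in aERKO_vehicle. Values ran from 6.37 to 7.39 in aERKO_vehicle and from 6.66 to 7.69 in aERKO_DES. The increase was 1.80 ± 0.35, or 3.47-fold (limma, adjusted p = 0.00141). Ivl, an early scaffold protein of the envelope, was 6.07, 5.86 and 5.96 in WT_vehicle and 6.67, 7.44 and 7.12 in WT_DES, while no aERKO array exceeded 6.16. The increase was 1.11 ± 0.17, or 2.15-fold (limma, adjusted p = 0.000217).

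The other Sprr genes were not called. Sprr1b, the closest relative of Sprr1a, read 5.08 to 5.34 in WT_vehicle and 4.90 to 5.49 in WT_DES, a difference of -0.08 with an interval of -0.51 to 0.36 (limma without the filter, adjusted p = 0.784). Sprr3, an Sprr protein of oral and esophageal epithelium, differed by -0.07 with an interval of -0.24 to 0.10 (adjusted p = 0.513), and all its 12 values lay between 3.59 and 3.94. Sprr4 differed by -0.14 with an interval of -0.44 to 0.16 (limma, adjusted p = 0.435) and its groups overlapped.

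The cross-linking enzymes did not follow the Sprr genes that rose. Tgm1, the membrane-bound transglutaminase of keratinocytes, was 6.99, 7.05 and 7.01 in WT_vehicle and 7.09, 7.15 and 7.07 in WT_DES. These groups did not overlap, but the difference of 0.09, with an interval of -0.09 to 0.26, did not pass the test (limma, adjusted p = 0.391). Tgm3, a transglutaminase of hair follicle and late epidermal differentiation, was 5.60 to 5.67 in WT_vehicle and 5.39 to 5.52 in WT_DES, a difference of -0.19 with an interval of -0.39 to 0.01 (limma without the filter, adjusted p = 0.122). Both intervals end below 0.30 on the upper side.

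Cnfn was the only one of the 17 called lower. It read 7.07, 6.84 and 6.94 in WT_vehicle and 6.58, 6.33 and 6.76 in WT_DES, and the groups did not overlap. The difference was -0.40 ± 0.15 (limma, adjusted p = 0.0478), and the call was lost without the filter (adjusted p = 0.0627) and after quantile normalization (0.0583). It was also lost, with adjusted p from 0.0541 to 0.187, when WT_vehicle array 1, 2 or 3, WT_DES array 1 or 2, aERKO_vehicle array 1 or 2, or aERKO_DES array 2 was left out. When the arrays were shifted to the 4 hybridization controls, which were lower by 0.357 in WT_DES than in WT_vehicle, the difference of Cnfn was -0.04 (adjusted p = 0.88).

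That shift raised the median difference over all genes tested from -0.05 to 0.31. It moves all genes of an array by the same amount, so differences relative to the median stay the same by construction. The shifted differences were 4.86 for Sprr2f, 3.02 for Sprr2b and 2.81 for Sprr2d in the unfiltered fit. In that fit 11 of the 17 genes were called higher, Sprr2i, Sprr2k and Tgm1 among them. The values of these last 3, 0.46 for Sprr2i, 0.55 for Sprr2k and 0.44 for Tgm1, stood beside a shifted median of 0.27 over the 30142 genes. Of all these genes 8994 were called higher.

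**Figure D2:**
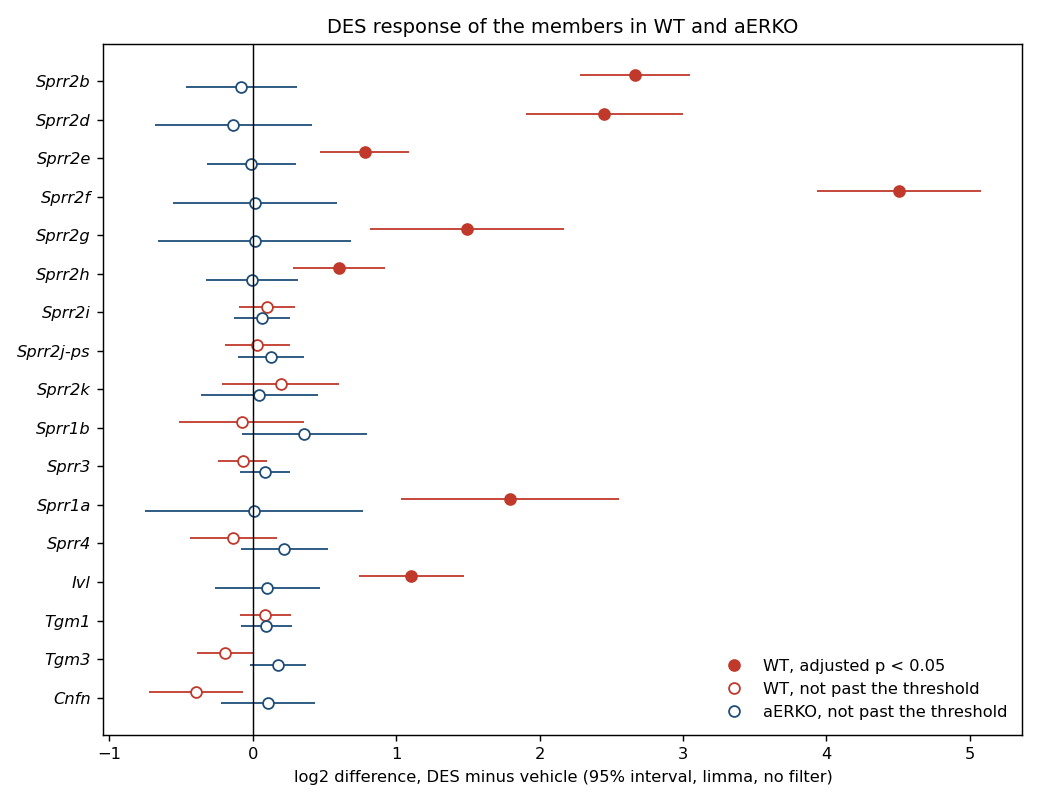
Log2 difference, DES minus vehicle, with its 95% interval (fit without the filter on low values) for each of the 17 genes, in WT and in aERKO. The 8 called genes stand to the right of 0 in WT, from 0.60 for Sprr2h to 4.51 for Sprr2f, and all 17 intervals in aERKO include 0.

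Within WT_DES the 8 genes that rose ordered the arrays alike. Array 1 was the lowest and array 2 the highest of the 3 in all 8, and the interval between them reached 1.82 for Sprr2g and 1.25 for Sprr2f. Over all 4128 genes called higher in the unfiltered fit, array 1 was the lowest in 48.6% and array 2 the highest in 79%. Marker lists of other cell types ordered them partly alike: array 2 was also highest for the basal epithelial list at 9.32, the macrophage list at 10.3, the neutrophil list at 8.41 and the fibroblast list at 11.2. For the B and plasma cell list array 3 was highest, at 8.21 against 7.94 on array 2, and for the T cell list arrays 2 and 3 both read 7.52. Array 1 was the lowest for the basal, macrophage, B and plasma cell and T cell lists, and array 3 for the neutrophil and fibroblast lists.

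In aERKO, none of the 10 genes tested was called after DES (limma), and none had an unadjusted p under 0.05. Without the filter none of the 17 was called and again none had an unadjusted p under 0.05. Over all 20130 genes tested 0% were called, with 263 at an unadjusted p under 0.05. Sprr2f differed by 0.01 with an interval of -0.56 to 0.58, Sprr2b by -0.08 with -0.47 to 0.31, and Sprr1a by 0.01 with -0.75 to 0.77 in the unfiltered fit. These intervals lie below those of the same genes in WT, whose lower bounds were 3.94, 2.28 and 1.03. The largest difference was 0.36, in Sprr1b, with an interval of -0.08 to 0.79. Array 3 of aERKO_DES was the highest of its group in all 17 genes, against 47.3% of all genes, and without it the difference of Sprr1b was 0.11 and that of Sprr2f was -0.22, with no gene called.

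The response to DES differed between the genotypes in 6 of the 10 genes tested, all 6 with the larger increase in WT, against 14.1% of all genes called in that direction. It was larger in WT by 4.49 ± 0.37 for Sprr2f (limma, interaction, adjusted p = 2.82e-06), by 2.74 ± 0.25 for Sprr2b (7.2e-06) and by 2.59 ± 0.36 for Sprr2d (0.000235). Sprr1a differed by 1.78 ± 0.49 (adjusted p = 0.0215), Ivl by 1.00 ± 0.24 (0.00945) and Sprr2e by 0.79 ± 0.20 (0.0139). The call of Sprr1a was lost, with a difference of 1.48 to 1.65 and adjusted p from 0.0525 to 0.06, when array 2 of any 1 of the 4 groups was left out. For Sprr2h the difference of 0.60 ± 0.21 missed the threshold (adjusted p = 0.0521), so its responses were not shown to differ; it passed without WT_DES array 1 (0.0282), aERKO_vehicle array 2 (0.0399) or aERKO_DES array 3 (0.0219). Without the filter Sprr2g joined these, at 1.48 ± 0.44 (adjusted p = 0.0416), making 7 of 17 against 8.83% of all genes. That call of Sprr2g was lost, with adjusted p from 0.0512 to 0.091, when any array but WT_DES array 1 was left out; without the latter it was 1.96 (adjusted p = 0.000126). Leaving out 1 array in this fit gave 4 to 8 genes, with 4 without WT_vehicle array 3, WT_DES array 2 or aERKO_DES array 2. Sprr1a was lost in this fit without array 2 of any 1 group (adjusted p from 0.0735 to 0.0852). It was also lost without WT_vehicle array 3 (0.0601), aERKO_vehicle array 3 (0.0667) or aERKO_DES array 1 (0.0632). The call of Sprr2e was lost under 4 of the other settings. Tgm1 showed -0.01 with an interval of -0.25 to 0.24.

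Without DES the genotypes were not distinguished by these genes. None of the 10 was called for aERKO against WT given vehicle (limma), against 0.0248% of all genes tested; 1 had an unadjusted p under 0.05. That 1 was Sprr2b, which differed by -0.39 with an interval of -0.77 to -0.0006 (limma, unadjusted p = 0.0497). Its interval in the unfiltered fit was -0.77 to 0.002. Sprr1a differed by -0.46 with an interval of -1.22 to 0.30, and in both genes the groups overlapped.

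Given DES, 7 of the 10 genes were lower in aERKO than in WT, against 24.6% of all genes, and 2 were higher, against 27.5%. This comparison shares the WT_DES arrays with that of DES in WT, so the values stand side by side and do not support one another. The log2 differences, aERKO minus WT, were -4.58 for Sprr2f, -3.13 for Sprr2b, -2.48 for Sprr2d, -2.25 for Sprr1a, -1.18 for Ivl, -0.75 for Sprr2e and -0.68 for Sprr2h. Without the filter 8 of 17 were lower, Sprr2g at -1.33 among them, against 16.9% of all genes, and 2 higher, against 24.5%. With 1 array left out the lower count stayed at 8, while 1 was higher without WT_DES array 1 or 2 or aERKO_DES array 3, 3 without WT_DES array 3 or aERKO_vehicle array 2, and 4 without aERKO_DES array 2. Every aERKO_DES array lay below every WT_DES array in 9 of the 17, against 19.2% of all genes, and above in 3, against 30.4%. Cnfn was higher in aERKO_DES by 0.46 (limma, adjusted p = 0.0226) and Sprr4 by 0.35 (0.0471), and in both the groups overlapped. The call of Cnfn was lost without array 3 of aERKO_DES (0.29, adjusted p = 0.0958) and without array 2 of WT_DES (0.34, adjusted p = 0.1), and with only the groups compared in the fit (0.0538). That of Sprr4 was lost without the filter (adjusted p = 0.0579), after quantile normalization (0.099), with the replicate number as a block (0.0539), with only the groups compared (0.0818) and, with adjusted p from 0.0551 to 0.202, without WT_vehicle array 1 or 3, any WT_DES array, aERKO_vehicle array 1 or 3, or aERKO_DES array 1 or 3. Tgm3 was higher by 0.36 (limma without the filter, adjusted p = 0.00878), from 5.39 to 5.52 in WT_DES against 5.69 to 6.00 in aERKO_DES. With the arrays shifted to the hybridization controls, none of these 3 was called: the differences were 0.24 for Cnfn (adjusted p = 0.356), 0.13 for Sprr4 (0.635) and 0.14 for Tgm3 (0.695).

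Profiles over all 12 arrays were compared by a distance that reflects the size of a change as well as its shape. Each gene was expressed as its difference from its own WT_vehicle mean, and genes were compared by the root mean square distance between such profiles, among those that passed the filter. The closest pair was Sprr2e and Sprr2h at 0.134, followed by Tgm1 and Sprr4 at 0.184 and Sprr2e and Ivl at 0.222. Outside the 17, the genes nearest to Sprr2f were Serpina3n, a secreted serine protease inhibitor, at 0.253, Gsdmc3 and Gsdmc2, of the gasdermin family, at 0.290 and 0.306, and the immunoglobulin segment Ighv14-2 at 0.307. Those nearest to Sprr1a were Sptssb at 0.315, Emb at 0.353, Mal2 at 0.370 and Trf, which encodes transferrin, at 0.372. Tgm1 had many near neighbours because it hardly moved, led by Cacng7 at 0.0344, St3gal2 at 0.0362, Cdr2l at 0.0396 and Smpd5 at 0.0408.

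The Sprr genes and Ivl lie together in the epidermal differentiation complex on chromosome 3, whereas Cnfn is on chromosome 7, Tgm1 on 14 and Tgm3 on 2. In RefSeq order from S100a1 to S100a10, an interval chosen after the values were seen, 75 genes were named on the array, 14 of them from the set. The 6 Sprr2 genes called higher, Sprr2b, Sprr2d, Sprr2e, Sprr2f, Sprr2g and Sprr2h, were neighbours in that order. Sprr2i, Sprr2j-ps, Sprr2k, Sprr1b and Sprr3 followed and were not called; then Sprr1a rose, Sprr4 was not called, and Ivl rose.

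Of the 61 other genes in the interval, 10 were called higher and 3 lower after DES in WT in the unfiltered fit. Over all 30142 genes in that fit 13.7% were called higher and 17% lower. The 20 late cornified envelope (Lce) genes, which encode further envelope precursors of epidermis, stayed between -0.41 and 0.37, with 1 called higher, Lce6a, and 3 lower, Lce1a1, Lce3b and Lce3e. Of the 14 S100 genes, which encode calcium-binding proteins, 6 were higher and 0 lower. Genes at least 2-fold higher numbered 9: 6 of the set, S100a8 at 6.72, S100a9 at 5.20 and the predicted gene Gm35439 at 1.09. In aERKO the differences over the interval ran from -0.39 to 0.36.

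**Figure D3:**
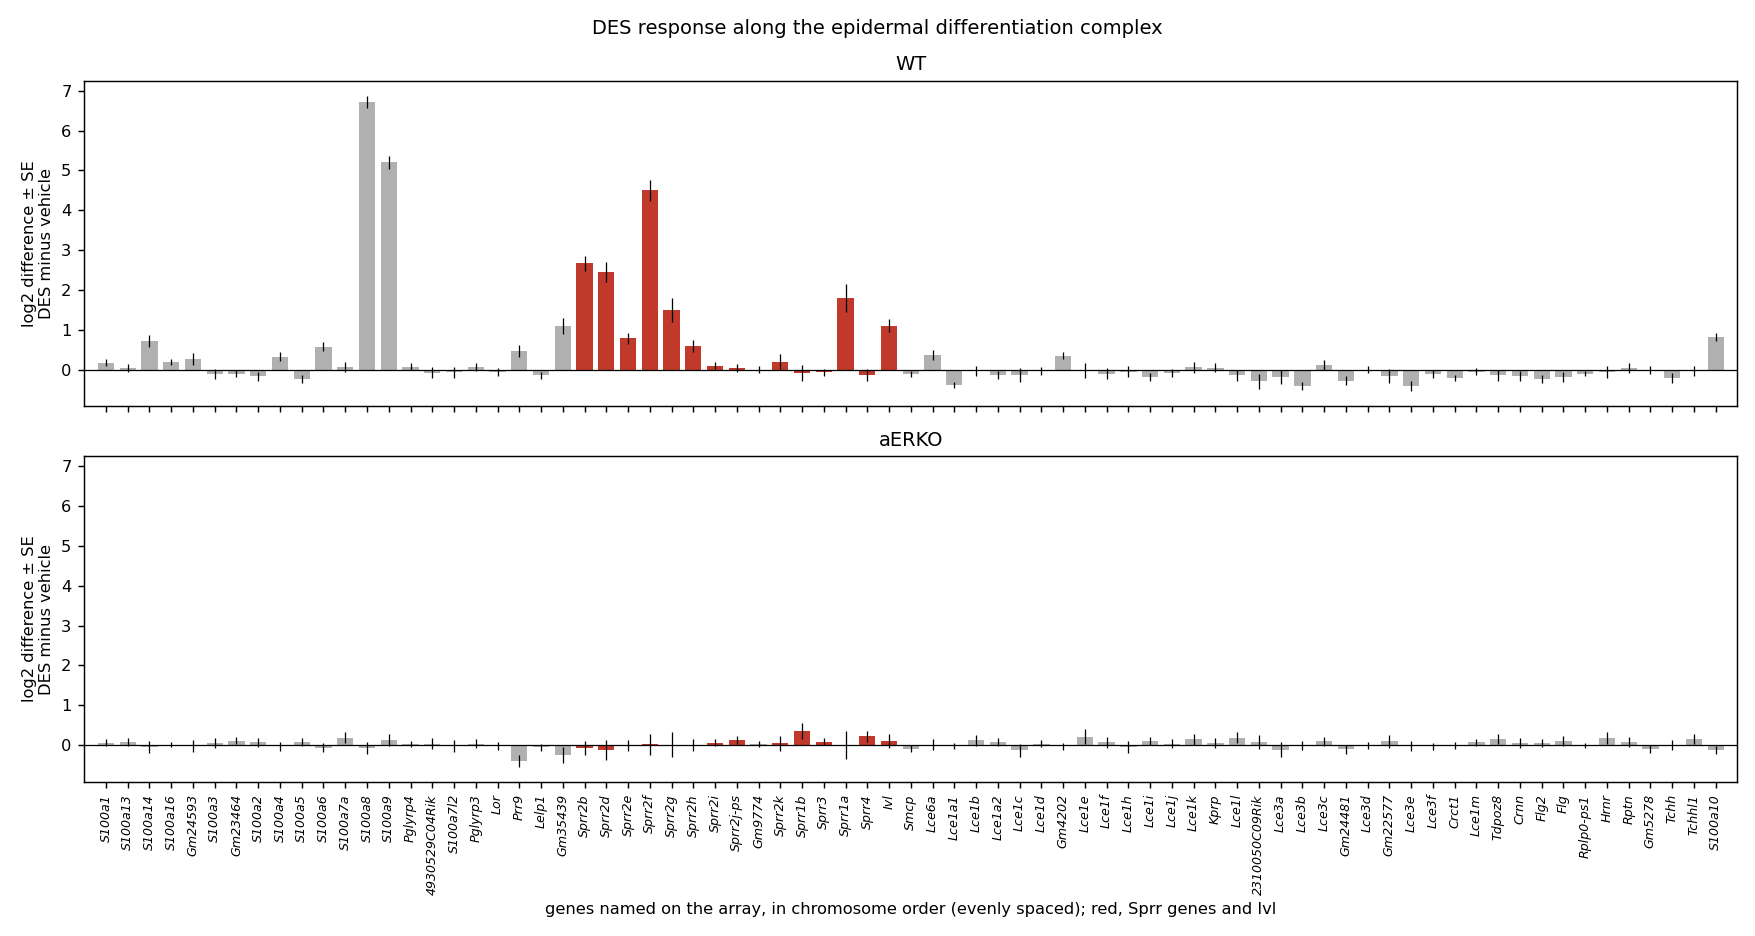
Log2 difference, DES minus vehicle, with its SE (fit without the filter) for the 75 genes named on the array from S100a1 to S100a10, in chromosome order, with WT above and aERKO below; genes of the set are in red. In WT the 6 adjacent Sprr2 genes from Sprr2b to Sprr2h, Sprr1a and Ivl stand above 0 beside S100a8 at 6.72 and S100a9 at 5.20, and in aERKO nothing exceeds 0.36.

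Other genes of cornification were read from 6 lists of the pathway. Among 13 tested of 40 other genes of the epidermal differentiation complex, 3 were higher and 0 lower after DES in WT, with a median of -0.05, the same as over all genes tested. The 3 were S100a8 (6.72 ± 0.15) and S100a9 (5.20 ± 0.16), the subunits of calprotectin and abundant in neutrophils, and S100a10 (0.81 ± 0.09), a partner of annexin A2. Both S100a8 and S100a9 were also members of the neutrophil list. Loricrin (Lor) and filaggrin (Flg), the major late proteins of the epidermal envelope and filament matrix, were not called.

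Desmosomal and scaffold genes, on which the envelope is built, were higher in 9 and lower in 2 of 18 tested, with a median of 0.23. Anxa1, a membrane-binding annexin cross-linked into envelopes, rose by 2.77 ± 0.13, the desmosomal cadherins Dsc3 by 1.85 ± 0.12 and Dsg3 by 0.84 ± 0.10, and the plaque protein Pkp1 by 0.58 ± 0.08. Perp fell by 0.48 and corneodesmosin, Cdsn, fell by 0.36. Keratins of stratified epithelium were higher in 6 and lower in 0 of 9 tested, with a median of 0.52. Krt4, a keratin of non-cornifying stratified epithelium, rose by 2.92 ± 0.12, and the basal keratins Krt15, Krt5 and Krt14 by 2.42 ± 0.10, 1.62 ± 0.09 and 0.74 ± 0.07. Krt10, a keratin of the suprabasal epidermis, differed by -0.04 and was not called.

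Of 5 tested transglutaminases other than Tgm1 and Tgm3, 2 were higher and 2 lower, with a median of 0.19. F13a1, the coagulation factor XIII subunit found in macrophages, rose by 2.13 ± 0.12 and the widespread enzyme Tgm2 by 1.10 ± 0.11. Tgm4, which is secreted by male accessory glands and clots semen, fell by 0.70, and Tgm6 fell by 0.30.

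Transcription factors of squamous differentiation were higher in 11 and lower in 4 of 24 tested, with a median of 0.15. Klf5 rose by 1.45 ± 0.09, Maf by 1.39 ± 0.10 and Nfe2l2, which encodes NRF2, by 1.20 ± 0.11. Of the AP-1 subunits, Fosl2 rose by 0.89 ± 0.11, Fos by 0.88 ± 0.14 and Jun by 0.56 ± 0.14. Fos and Jun were named after their values were seen. The list also held the AP-1 subunits Fosb, Fosl1, Junb and Jund. Their values are not given here, so the named subunits do not describe AP-1 as a whole. Grhl1 fell by 0.47, Ovol2 by 0.46 and Grhl2 by 0.39. Proteases, inhibitors and lipid enzymes of late differentiation were higher in 3 and lower in 5 of 17 tested, with a median of -0.13. Asprv1, a protease that processes filaggrin, rose by 1.50 ± 0.18, the serpin Serpinb5 by 1.40 ± 0.11 and Alox12e by 0.67 ± 0.10, while the membrane protease Prss8 fell by 0.74, Klk14 by 0.33 and Aloxe3 by 0.31.

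These counts stand beside 20.7% of all genes called higher and 23.3% called lower, and the lists were chosen with earlier results of these data known. In aERKO none of the tested genes of the 6 lists was called after DES (limma). At an unadjusted p under 0.05 there were 0 of 13, 0 of 5, 1 of 18, 0 of 9, 0 of 24 and 1 of 17, for the epidermal complex, transglutaminases, scaffold, keratins, regulators and late enzymes. With the arrays shifted to the hybridization controls the scaffold genes, the regulators and the other transglutaminases had 0 called lower in WT and 11, 15 and 3 called higher, and the late enzymes had 1 called lower, Prss8. Tgm6, Klk14 and Aloxe3 then read 0.05, 0.02 and 0.05, so the decreases named from these lists, other than that of Prss8, depend on the scaling. Tgm4 is in the transglutaminase list and among the markers of seminal vesicle secretion.

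**Figure D4:**
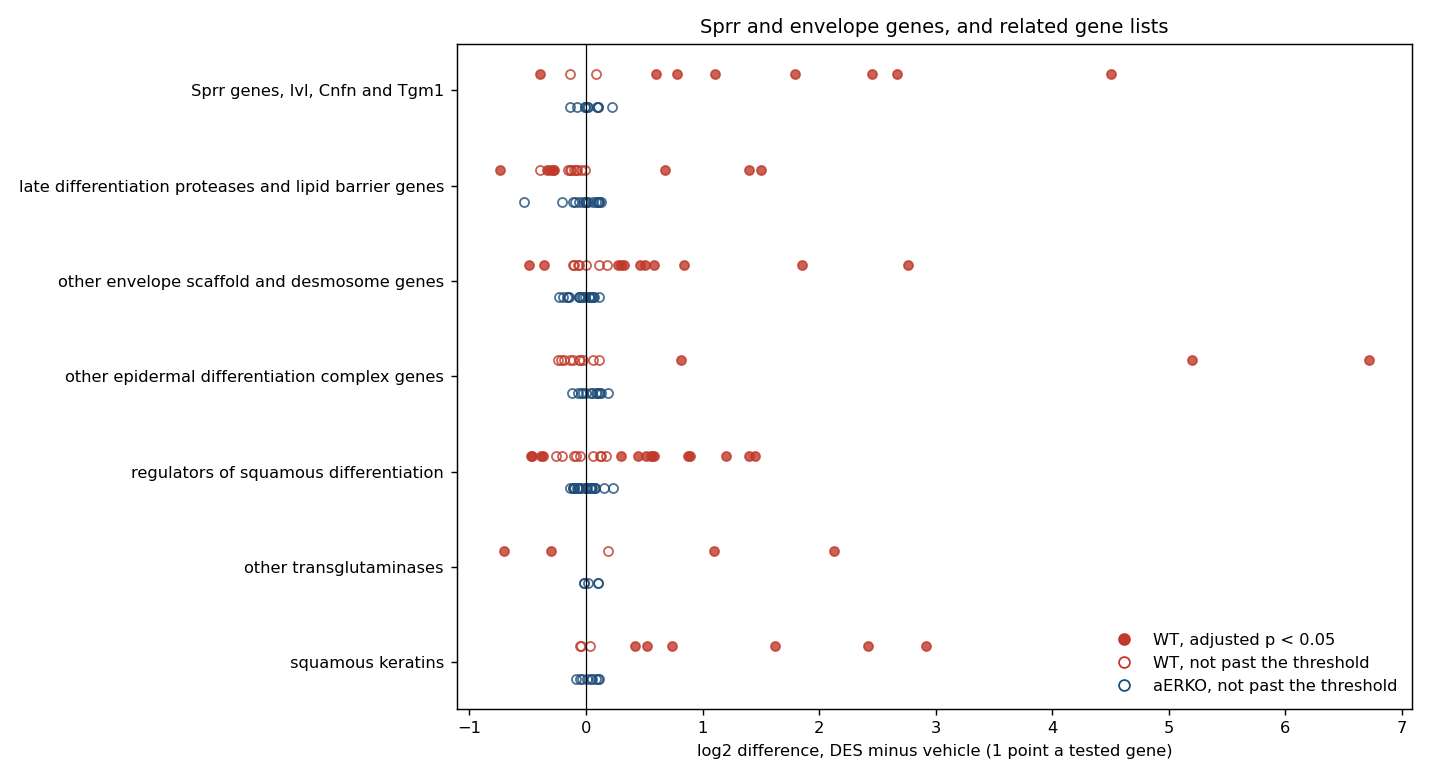
Log2 difference, DES minus vehicle in WT and in aERKO, of each tested gene of the set (top) and of the 6 pathway lists; each point is 1 gene, filled where its adjusted p was below 0.05. In WT the medians are 0.23 for scaffold and desmosome genes and 0.52 for squamous keratins, and in aERKO no point was called.

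Markers of other cell types moved with the same comparison. Of the basal epithelial list (Trp63, Krt5, Krt14, Krt15, Ngfr and Dst) 5 of 6 were higher and 0 lower after DES in WT. Its mean level was 8.21 to 8.28 in WT_vehicle, 9.10 to 9.32 in WT_DES, 8.16 to 8.18 in aERKO_vehicle and 8.07 to 8.22 in aERKO_DES. Krt5, Krt14 and Krt15 are also in the list of stratified keratins and Trp63 in that of transcription factors, so these counts share genes. All 9 macrophage markers were higher, with mean levels of 7.59 to 7.84 in WT_vehicle, 9.88 to 10.3 in WT_DES, and 7.62 to 7.92 in the aERKO groups. Of 11 neutrophil markers 8 were higher, with 5.70 to 5.74, 7.97 to 8.41 and 5.57 to 5.88 in the same order. The B and plasma cell list was higher in 5 of 5, the T cell list in 4 of 5 and the fibroblast list in 5 of 5, with none lower in any of these lists.

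The tissue label was borne out by its own markers: the seminal vesicle secretory list averaged 13.7 to 13.8 in WT_vehicle and 13.2 to 13.6 in WT_DES, with 6 of 9 lower and 0 higher (1 of 9 lower with the hybridization controls). The luminal list was higher in 5 and lower in 2 of 8, and 3 of 4 markers of prostate and coagulating gland were lower. Spink1 is in the seminal vesicle list and also in this last list. For that last list WT_vehicle array 1 stood apart, at 12.3, and WT_DES array 1, at 11.5, lay above the other 2 WT_vehicle arrays, of which the lower was at 10.8. Without WT_vehicle array 1, 2 of the 4 were lower and 1 higher, and without WT_DES array 2 or 3, 2 were lower. Of 3 tested markers of vas deferens and epididymis, and of 3 of epidermis (Krt10, Lor and Flg), none was called in WT, with 1 and 0 at an unadjusted p under 0.05. Krt1 and Krt2 did not pass the filter. An array gives no true 0, so no marker could be listed as absent. The part that basal cells, leukocytes, fibroblasts or epidermal tissue had in the values of the Sprr genes was not tested.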

How the data were processed

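RNA from 12 seminal vesicle samples was measured on Affymetrix arrays; the sample labels gave each sample's group and number. Total RNA (Trizol; 300 ng per array) was amplified and labelled per the labels' protocols. The authors deposited log2 values, 1 for each probe set; the submitters' processing notes name RMA and Affymetrix Expression Console, while settings, versions and build were not given in the sources used here. RMA equalizes the distribution of values between arrays, so a broad shift can move unchanged genes the other way.

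Of 72688 probe sets, 30604 had 1 symbol, 2146 several and 39938 none. Only those with 1 symbol were named, 827 symbols being updated through RefSeq (GRCm38.p6), and 355 genes with more than 1 probe set kept the one with the highest mean. Promoter sequences came from RefSeq and 15 of the 17 genes matched; identity was taken from a global alignment in Biopython 1.88.

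Differences were tested with limma 3.58.1 in R 4.3.3 (lmFit and eBayes, 8 residual and 4.33 prior degrees of freedom), with a mean per group, two-sided, and Benjamini-Hochberg adjustment over all genes tested in each of 5 comparisons; the code was tested on simulated data. With 3 arrays against 3 the smallest exact permutation p is 0.1, so none was run. Named genes are all 17; the called list genes with the largest differences, up to 4 higher and 3 lower per list; the 4 nearest profiles of Sprr2f, Sprr1a and Tgm1; Esr1; and genes named in the text as chosen after their values were seen, including those of the chromosome interval. The genes and lists were chosen with earlier results of these data known. Each result was recomputed under 23 other settings, and under 13 more chosen after seeing the data.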

Additional observations from a re-analysis of the deposited data

Results flagged for a closer look

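In the fit without the filter, the response to DES differed between WT and aERKO for 7 of the 17 genes (limma, interaction test). All 7 had the larger increase in WT, a direction in which 8.83% of all genes were called. In the filtered fit that share was 14.1% of all genes tested. The calls of Sprr1a, Sprr2e and Sprr2g did not hold under every setting. The WT response exceeded the aERKO response by 4.492 for Sprr2f, 2.744 for Sprr2b, 2.586 for Sprr2d, 1.785 for Sprr1a, 1.004 for Ivl and 0.791 for Sprr2e on the log2 scale. In the fit without the filter on low values it did so by 1.482 for Sprr2g. In the filtered fit the call of Sprr1a was lost without array 2 of any 1 group (adjusted p from 0.0525 to 0.06). In the unfiltered fit it was lost without those arrays (0.0735 to 0.0852). There it was also lost without WT_vehicle array 3 (0.0601), aERKO_vehicle array 3 (0.0667) or aERKO_DES array 1 (0.0632). That of Sprr2g was lost without any array but WT_DES array 1 (0.0512 to 0.091). The call of Sprr2e was lost under 4 of the other settings.

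The platform pairs 2 further probe sets with several Sprr2 symbols, and they entered none of the comparisons above. In WT, DES minus vehicle was 1.741 for the one with 2 symbols and 2.379 for the one with 3 (no test). In aERKO the differences of these probe sets were -0.03 and -0.02. Which Sprr2 transcript they measured is not known.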

How the results depend on the processing

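No called value changed sign. The 10 genes that passed the filter were run under 23 settings and 13 chosen after seeing the data: 77 values lost a call, 13 gained one and 1675 kept their side of the threshold, 74 of them uncalled values that changed sign. The 7 other genes were run only without the filter, under the 13: 12 values lost a call, 5 gained one and 438 kept their side, 32 of them uncalled and of the other sign. For DES in WT, the hybridization controls turned the uncalled differences of Sprr4 to 0.22, Tgm3 to 0.17, Sprr1b to 0.28 and Sprr3 to 0.29. With the stricter filter, which left 5 of the genes, 3 were called for DES in WT, 2 for the difference between the responses and 4 for aERKO against WT given DES. Among the 3, Cnfn was called lower (limma, adjusted p = 0.0452). Among the 4, Cnfn and Sprr4 were called higher in aERKO. Requiring a 2-fold change left 5 for DES in WT, all higher, and 5 for aERKO against WT given DES, all lower in aERKO. Over the 20130 genes tested it left 923 higher and 107 lower in the first comparison. In the second it left 123 higher and 971 lower. Each array was then left out in turn, and genes called in either direction were counted. The number called was 7 to 8 for DES in WT, 5 to 7 for the difference and 7 to 9 for aERKO against WT given DES. It was 0 in the other comparisons. Shares over all genes are not given here for the stricter filter or with arrays left out.

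Same-numbered samples of different groups deviated together at -0.355 to 0.52. For arrays numbered 3 the value was 0.52 between the aERKO groups. It was 0.456 between WT_DES and aERKO_DES and 0.371 between WT_DES and aERKO_vehicle. WT_vehicle array 3 stood at -0.00367 to 0.0751 with these, and a differently numbered pair reached 0.584. Whether the numbers mark a pairing or a shared batch is therefore not settled. With the replicate number as a block, 8 genes were called for DES in WT, 8 for the difference and 8 for aERKO against WT given DES. These counts take both directions together, and the shares over all genes are not given. For DES in WT they include Cnfn, called lower (limma, adjusted p = 0.0163). Sprr2h passed the test of the difference with the block (adjusted p = 0.0405), after quantile normalization (0.0227) and with the arrays shifted to the hybridization controls (0.0336).

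Scaling moved the split over all genes and also that of these genes. In the unfiltered fit, 8 of the 17 were called higher for DES in WT as deposited and 11 with the hybridization controls. Given DES, 2 were called higher in aERKO as deposited and 0 with these controls. As deposited, the shares over all genes in that fit were 13.7% and 24.5%. DES in WT gave 4158 higher and 4684 lower as deposited, 3407 and 7123 with equal medians, 3712 and 5659 after quantile normalization, and 8351 and 350 with the hybridization controls; for the difference the last gave 2810 and 133 against 2841 and 1844. Given DES, aERKO against WT gave 5536 and 4956 as deposited and 553 and 5833 with the hybridization controls. Requiring a 2-fold change left 1030, 977 and 1094 genes in these 3 comparisons. The small differences of Cnfn, Sprr4 and Tgm3 given DES were called on the deposited scale and not with the hybridization controls.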
